A study of Mus musculus with 4 samples.

Results

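The glycolysis and pentose phosphate genes described here are 40 mouse genes, taken as a list of names by their place in these pathways. No measured value enters the rule, but the list was drawn up with earlier results of these data known. The list runs from the glucose and lactate carriers through the enzymes of glycolysis and lactate dehydrogenase to the kinases and bifunctional enzymes that regulate the pathway, and ends with the enzymes of the pentose phosphate pathway. All 40 were found among the 50686 gene identifiers of the count tables. Eno1 and its near-identical copy Eno1b were summed, so the list makes 39 features, and all 39 passed the filter on low counts that left 15393 features for testing. RNA was sequenced from mouse cells taken from spleen and lymph node and held in culture. There were 4 groups with 1 library each: Yap KO stimulated, WT stimulated, Yap KO unstimulated and WT unstimulated. Yap1, the gene named in the knockout, encodes a transcriptional co-activator of the Hippo pathway. Titles of both stimulated libraries have a 24 without a unit, which is missing from the unstimulated ones. What stimulated the cells, their type, the deleted exons, any Cre driver and how many animals were used is not given in the sources used here. The replicate number is 1 throughout, and genotype and cell source cannot be told apart. Nor can the stimulus and whatever the 24 stands for, such as a time in culture.

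Glycolysis splits glucose into pyruvate and yields ATP and NADH in the cytosol. Lactate dehydrogenase turns pyruvate into lactate, which restores the NAD+ that the pathway needs, and monocarboxylate carriers move the lactate out of the cell. The pentose phosphate pathway branches off at glucose 6-phosphate, and its oxidative arm makes NADPH while its non-oxidative arm links ribose 5-phosphate with glycolytic intermediates. Activated lymphocytes are known for high glucose uptake and lactate release even with oxygen present, a state often called aerobic glycolysis. The transcription factors HIF1A and MYC are known to act on many genes of both pathways, through DNA elements that hold ACGTG in the case of HIF1A and CACGTG in the case of MYC.

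The sequences shown are the 250 bases before the RefSeq gene start (GRCm38.p6, 5′ to 3′ on the gene's own strand) of 4 members: the lactate carrier Slc16a3 and the hexokinase Hk2, the 2 members that differed most between states, Pgk1, which has a pair of motif matches close together, and the hexokinase Hk3, the member with the lowest state coefficient of the fit over both genotypes. Capitals mark ACGTG or its complement CACGT. The windows are chr11:120948817-120949066 on the plus strand, chr6:82774455-82774704 on the minus strand, chrX:106186850-106187099 on the plus strand and chr13:55021386-55021635 on the minus strand, in the order of the lines. The Slc16a3 window lies inside the gene as GENCODE M21 draws it, since a GENCODE transcript starts upstream of the RefSeq start.
Slc16a3: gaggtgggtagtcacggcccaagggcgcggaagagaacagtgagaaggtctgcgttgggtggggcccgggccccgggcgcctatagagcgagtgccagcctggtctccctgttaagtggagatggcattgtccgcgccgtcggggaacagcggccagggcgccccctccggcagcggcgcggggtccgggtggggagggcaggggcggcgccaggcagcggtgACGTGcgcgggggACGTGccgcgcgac
Hk2: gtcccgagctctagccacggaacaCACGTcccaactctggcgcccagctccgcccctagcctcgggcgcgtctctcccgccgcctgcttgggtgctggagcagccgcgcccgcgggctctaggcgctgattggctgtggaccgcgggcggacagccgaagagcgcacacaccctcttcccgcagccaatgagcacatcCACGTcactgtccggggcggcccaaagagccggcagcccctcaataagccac
Pgk1: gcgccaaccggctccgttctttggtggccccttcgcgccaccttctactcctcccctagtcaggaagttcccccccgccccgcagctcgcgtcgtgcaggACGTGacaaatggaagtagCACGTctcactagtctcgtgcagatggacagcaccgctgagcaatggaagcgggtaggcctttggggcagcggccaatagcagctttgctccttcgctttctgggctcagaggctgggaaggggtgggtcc
Hk3: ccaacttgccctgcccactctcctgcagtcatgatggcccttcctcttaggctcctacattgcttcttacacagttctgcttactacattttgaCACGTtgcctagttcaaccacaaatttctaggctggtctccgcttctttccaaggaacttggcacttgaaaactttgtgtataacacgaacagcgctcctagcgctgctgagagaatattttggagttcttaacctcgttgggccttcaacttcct
Slc16a3 holds 2 matches, at positions -27 and -14 counted from the gene start, and Hk2 holds 2, at -226 and -52. Pgk1 holds 2, at -150 and -131, while the single match of Hk3 starts at -156. Windows of this length were matched for 38 members, with no entry for Slc2a3 and Eno1b. ACGTG on either strand was found in 15 of the 38 (39.5%), against 18.5% of 27025 genes. CACGTG, every copy of which also holds ACGTG, was found in 6 of the 38 members (15.8%), against 6.86% of genes. ACGTG outside such a copy stood in 13 members (34.2%) and 12.8% of genes, and CCAAT in 17 members (44.7%) and 37.5% of genes. Of the 13 members at least 4-fold higher in stimulated cells, 8 hold ACGTG in the window, namely Slc16a1, Slc16a3, Hk2, Aldoa, Pgk1, Pgam1, Pkm and Ldha. Members called lower in stimulated cells hold it too, namely Hk3, Pdk2 and Pfkfb2, while Pdk1 and H6pd, also called lower, do not. The motif was thus present among members that rose and among members that fell. A match is only a description of letters.

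Reads assigned to genes numbered 19935523 and 20976343 in the stimulated Yap KO and WT libraries, against 25419974 and 22088392 in the unstimulated Yap KO and WT libraries. Yap1 had 2 and 3 reads in the stimulated Yap KO and WT libraries and 0 and 1 in the unstimulated ones, none of them above a floor of 3 counts, and therefore does not check the genotype labels. The 6 T cell markers summed to 1076 and 1224 CPM (reads scaled by the library's reads in genes) in the stimulated libraries and to 3166 and 3114 in the unstimulated ones (Yap KO and WT each time), and Cd8a with Cd8b1 summed to 504 and 589 against 2346 and 2231. B cell markers summed to 23.1 and 11.8 CPM in stimulated and 60.9 and 36.4 CPM in unstimulated Yap KO and WT cells, higher in Yap KO in each state. Markers of monocytes and macrophages summed to 23.4 and 17.6 against 31.5 and 26.5 CPM in the same order. Dendritic cell markers summed to 8.78 and 2.62 CPM in stimulated and 33.6 and 10.5 CPM in unstimulated Yap KO and WT cells, NK cell markers to 1.76 and 1.19 against 19.7 and 5.84 CPM, and stromal and endothelial markers, with Cdh5 at 0 in all libraries, to 10.3 and 11.5 against 139 and 164 CPM. Pecam1 held most of the stromal and endothelial reads, with 193 and 227 in stimulated and 3065 and 3567 in unstimulated Yap KO and WT cells. Pdgfrb had 13 and 14 reads against 459 and 37 in the same order. CD4 T cell and platelet markers stayed between 0.407 and 4.36 CPM, with Pf4 at 0 in all libraries. The part of these cell types in the results was not tested. In bulk RNA, fewer cells of a type and less RNA per cell cannot be told apart. With 1 library per group, no p-value was computed for a single pair of libraries. Intervals are exact 95% intervals that cover counting error only.

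The 40 members together took 2.44% of the reads in genes in the stimulated Yap KO library (95% interval 2.44 to 2.45%) and 2.82% in the stimulated WT library (2.81 to 2.83%), against 0.626% (0.622 to 0.629%) and 0.542% (0.539 to 0.545%) in the unstimulated Yap KO and WT libraries. Both stimulated libraries stood above both unstimulated ones. The genotypes were in opposite order in the 2 states, with Yap KO below WT among stimulated and above WT among unstimulated cells. The 20 enzyme genes from hexokinase to lactate dehydrogenase held most of these reads, with 2.25 and 2.59% in stimulated Yap KO and WT cells and 0.492 and 0.408% in unstimulated Yap KO and WT cells. The 8 pentose phosphate genes held 0.0885 and 0.095% in stimulated Yap KO and WT cells, against 0.058 and 0.0548% in unstimulated ones.

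Per length of exon, the gene for the lactate dehydrogenase subunit A, Ldha, stood highest of the members in every library. Its level was 5968 and 7046 TPM (reads per kilobase of exon, scaled to the same total in every library) in stimulated Yap KO and WT cells, and 933 and 858 in unstimulated Yap KO and WT cells. Gapdh, the glycolytic dehydrogenase that reduces NAD+, came next in stimulated cells with 2798 and 2844 TPM, against 502 and 424 TPM in unstimulated cells. The scale spans several orders of magnitude across the members. The hexokinase Hk3 was lowest in stimulated cells, at 0.159 TPM in Yap KO and 0.22 TPM in WT, followed by the pyruvate dehydrogenase kinase Pdk2 at 0.696 and 0.684 TPM.

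**Figure D1:**
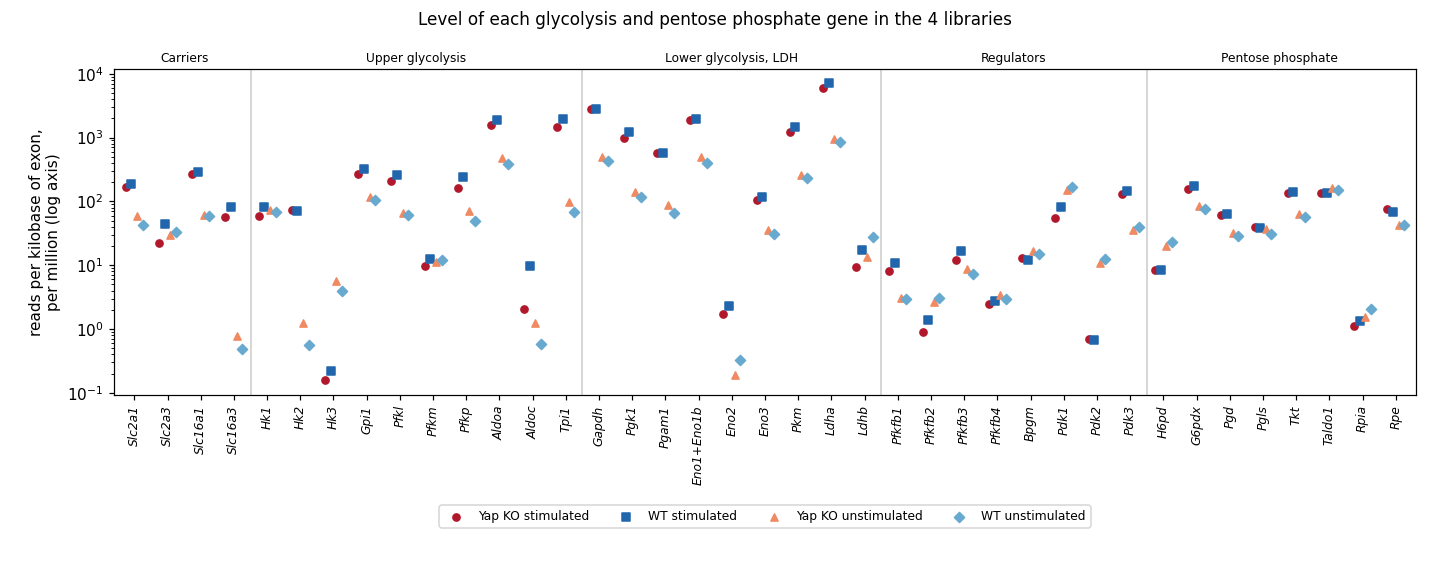
Level of every member in the 4 libraries, in TPM, reads per kilobase of exon scaled to the same total in every library (log axis), 1 symbol per library and no error bars. Ldha stands highest in all 4 libraries, at 5968, 7046, 933 and 858 TPM, and the symbols of stimulated and unstimulated cells lie far apart for Slc16a3, Hk2, Hk3 and Tpi1.

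The comparison of stimulated with unstimulated cells asks which genes changed alike in both genotypes. With edgeR's quasi-likelihood F test and Benjamini-Hochberg adjustment over all features, 25 of the 39 member features were higher in stimulated cells, 5 were lower and 9 were not called. The shares over all tested features were 32.1% higher and 32.6% lower. At least 4-fold and called, 13 members were higher and 2 were lower, where 9.8% and 11.8% of all features were. The median log2 ratio of stimulated over unstimulated cells over the 39 members was 1.11 in Yap KO and 1.70 in WT, against -0.05 and -0.02 over all features.

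Among the sugar and lactate carriers, 3 of 4 rose and 1 was not called. Slc16a3, the monocarboxylate carrier known for lactate export from glycolytic cells (chr11:120948480-120960868 on GRCm38, protein coding), had 2053 and 3215 reads in stimulated Yap KO and WT cells, against 37 and 20 reads in unstimulated Yap KO and WT cells. Its state coefficient was 6.79 ± 0.26 on the log2 scale (SE; adjusted p 2.42e-08, edgeR), with scaled ratios of 70.3-fold in Yap KO and 164-fold in WT. Both stimulated libraries were far above both unstimulated ones. Slc16a1, the more widely expressed carrier of lactate and pyruvate, had 8104 and 9346 reads in stimulated Yap KO and WT cells, against 2424 and 2060 in unstimulated ones (2.26 ± 0.13, adjusted p 2.76e-07). Slc2a1, the GLUT1 glucose carrier, had 4072 and 4804 reads against 1794 and 1192 in the same order (1.89 ± 0.16, adjusted p 3.12e-06). Both carriers were higher in each stimulated library than in either unstimulated one. Slc2a3, the high-affinity glucose carrier GLUT3, was not called: it had 1087 reads in stimulated Yap KO cells and 2375 in stimulated WT cells, against 1923 and 1877 in unstimulated Yap KO and WT cells (0.06 ± 0.19, adjusted p 0.801). Its lowest and its highest library were both stimulated.

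In upper glycolysis, from hexokinase to triose phosphate isomerase, 7 of 10 members rose, 1 fell and 2 were not called. Hk2, the inducible hexokinase that phosphorylates glucose on entry (chr6:82725025-82774454), had 2936 and 3174 reads in stimulated Yap KO and WT cells, against 65 and 26 in unstimulated Yap KO and WT cells. Its state coefficient was 6.40 ± 0.25 (adjusted p 2.56e-08), with ratios of 58.7-fold in Yap KO and 127-fold in WT. Hk1, the broadly expressed hexokinase, was not called, with 3375 and 5146 reads in stimulated cells and 5525 and 4618 in unstimulated cells, Yap KO before WT in each state (0.02 ± 0.16, adjusted p 0.918). Hexokinase genes thus went 3 ways, since Hk3 fell: it had 4 and 6 reads in stimulated Yap KO and WT cells, against 182 and 112 in unstimulated ones (-4.51 ± 0.48, adjusted p 1.73e-05). Hk3 (chr13:55005985-55021385) is known from myeloid cells. Beside it, the 5 monocyte and macrophage markers summed to 23.4 and 17.6 CPM in stimulated Yap KO and WT cells, against 31.5 and 26.5 in unstimulated ones, and none of the 5 was at 0 in all libraries. Of these, Lyz2 had 1 and 6 reads in stimulated Yap KO and WT cells and 238 and 136 in unstimulated ones, while Csf1r had 396 and 291 against 435 and 362. The 5 neutrophil markers summed to 0.0502 and 0.0477 CPM in stimulated and 1.06 and 3.94 in unstimulated Yap KO and WT cells. The part of these cells in the Hk3 result was not tested.

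Phosphofructokinase makes the committed step of glycolysis. Its liver-type gene Pfkl had 9358 and 12638 reads in stimulated Yap KO and WT cells, against 3933 and 3206 in unstimulated ones (1.91 ± 0.15, adjusted p 1.96e-06). The platelet-type gene Pfkp had 15011 and 23821 against 8204 and 5193 (1.83 ± 0.22, adjusted p 4.21e-05). Both rose, while the muscle-type gene Pfkm had 224 and 314 reads in stimulated cells and 334 and 311 in unstimulated cells and was not called (0.02 ± 0.20, adjusted p 0.945). Gpi1, which turns glucose 6-phosphate into fructose 6-phosphate, rose as well (1.48 ± 0.14, adjusted p 1.03e-05). Aldoa, the main aldolase, had 31434 and 41112 reads in stimulated Yap KO and WT cells, against 12171 and 8725 in unstimulated ones (2.10 ± 0.16, adjusted p 1.95e-06). Aldoc, an aldolase known from brain, stood near the bottom of the range with 45 and 231 reads in stimulated Yap KO and WT cells, against 36 and 15 in unstimulated ones (2.39 ± 0.67, adjusted p 0.00975). The stimulated WT library alone stands apart for Aldoc, and the fit with a robust prior, chosen after seeing the data, gave adjusted p 0.0614. Tpi1, which interconverts the triose phosphates (chr6:124810586-124814296), had 27317 and 39392 reads in stimulated Yap KO and WT cells, against 2336 and 1461 in unstimulated ones. Its coefficient of 4.45 ± 0.22 (adjusted p 1.13e-07) was the third in size among the members that rose, after Slc16a3 and Hk2.

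In lower glycolysis with lactate dehydrogenase, 8 of 9 members rose, 7 of them at least 4-fold, and 1 was not called. Gapdh had 78772 and 86873 reads in stimulated Yap KO and WT cells, against 18270 and 13745 in unstimulated ones (2.68 ± 0.14, adjusted p 1.3e-07). Pgk1, the first ATP-yielding step, had 14890 and 19943 against 2736 and 2049 (3.16 ± 0.17, adjusted p 1.48e-07), and Pgam1, the phosphoglycerate mutase, 7624 and 8508 against 1520 and 1006 (3.00 ± 0.16, adjusted p 1.41e-07). For each of them both stimulated libraries stood above both unstimulated ones. The summed enolase pair Eno1 and Eno1b rose by 2.17 ± 0.15 (adjusted p 8.01e-07), and Eno3, the muscle-type enolase, by 1.79 ± 0.16 (adjusted p 4.73e-06). Eno2, the enolase known from neurons, rose too (3.04 ± 0.50, adjusted p 4.03e-04), on few reads: 56 and 80 in stimulated Yap KO and WT cells, against 8 and 12 in unstimulated ones. Pkm, the pyruvate kinase that closes glycolysis, had 41641 and 55069 against 11525 and 9079 reads (2.52 ± 0.15, adjusted p 3.64e-07).

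Ldha (chr7:46841475-46855627) had 134542 and 172387 reads in stimulated Yap KO and WT cells, against 27205 and 22272 in unstimulated Yap KO and WT cells. That was 6.65-fold in Yap KO and 8.69-fold in WT, with a coefficient of 2.93 ± 0.15 (adjusted p 1.05e-07). Ldha alone made up 0.675 and 0.822% of all reads in genes in stimulated Yap KO and WT cells, against 0.107 and 0.101% in unstimulated ones. Ldhb, the subunit that is known to favour the turn from lactate to pyruvate, was not called, with 99 and 204 reads in stimulated and 187 and 335 in unstimulated Yap KO and WT cells (-0.52 ± 0.22, adjusted p 0.065). Under scaling by total counts its adjusted p was 0.037.

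**Figure D2:**
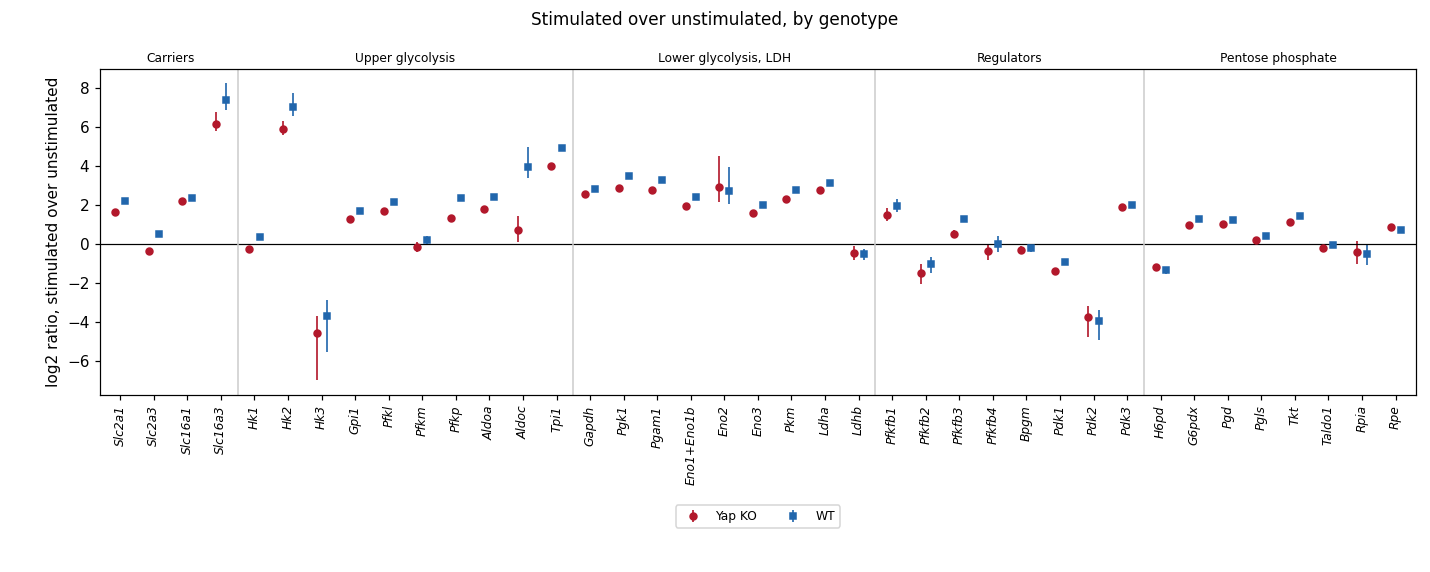
Log2 ratio of stimulated over unstimulated cells for each member, in Yap KO and in WT, with exact 95% intervals that cover counting error only. Slc16a3 and Hk2 lie above 5 in both genotypes, Hk3 and Pdk2 lie below -3, and most glycolytic enzymes lie between 1 and 4 with the Yap KO point under the WT point.

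The regulators did not move as 1 group: 3 of 8 rose, 3 fell and 2 were not called. The PFKFB enzymes make or remove fructose 2,6-bisphosphate, the activator of phosphofructokinase. Pfkfb1 rose (1.71 ± 0.25, adjusted p 1.56e-04) with 222 and 322 reads in stimulated Yap KO and WT cells, against 107 and 94 in unstimulated ones. Pfkfb3, the isoform with the strongest kinase activity, rose less (0.89 ± 0.20, adjusted p 0.0025), with 617 and 934 against 577 and 439 reads. Pfkfb2 fell (-1.29 ± 0.30, adjusted p 0.00353), with 44 and 75 reads in stimulated and 171 and 176 in unstimulated Yap KO and WT cells. Pfkfb4 was not called (-0.20 ± 0.29, adjusted p 0.568). The family thus held members of each kind. The PDK kinases switch off pyruvate dehydrogenase and so keep pyruvate from the mitochondrial cycle. Pdk1 fell, with 2898 and 4765 reads in stimulated Yap KO and WT cells, against 10372 and 10144 in unstimulated ones (-1.17 ± 0.15, adjusted p 6.27e-05). Pdk2 fell further, with 15 and 16 against 306 and 311 reads (-4.01 ± 0.31, adjusted p 1.81e-06). Pdk3 rose, with 2249 and 2802 reads in stimulated and 809 and 798 in unstimulated Yap KO and WT cells (1.94 ± 0.13, adjusted p 7.53e-07). Within each state the 2 genotypes of Pdk2 and of Pdk3 lay close together compared with the gap between states. Bpgm, which makes the 2,3-bisphosphoglycerate of red cells, was not called (-0.28 ± 0.18, adjusted p 0.203). Its reads were 312 and 322 in stimulated and 523 and 425 in unstimulated Yap KO and WT cells. The 6 erythroid markers summed to 0.401 and 0.667 CPM in stimulated and 2.20 and 3.94 in unstimulated Yap KO and WT cells, near 0 in all, and none was at 0 in all libraries.

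Of the 8 pentose phosphate genes 4 rose, 1 fell and 3 were not called, and none of the changes reached 4-fold. In the oxidative arm, G6pdx, the entry enzyme that makes NADPH, had 3247 and 4016 reads in stimulated Yap KO and WT cells, against 2271 and 1847 in unstimulated ones (1.12 ± 0.14, adjusted p 4.73e-05). Pgd, the other NADPH-making step, rose about as much (1.13 ± 0.13, adjusted p 3.08e-05), while Pgls, the lactonase between them, was not called (0.30 ± 0.14, adjusted p 0.0884). H6pd, which carries out the same first steps inside the endoplasmic reticulum, fell: it had 295 and 324 reads in stimulated and 919 and 941 in unstimulated Yap KO and WT cells (-1.29 ± 0.16, adjusted p 6.31e-05). In the non-oxidative arm, the transketolase Tkt had 6716 and 7722 reads in stimulated Yap KO and WT cells, against 4180 and 3278 in unstimulated ones (1.26 ± 0.13, adjusted p 1.73e-05). Rpe, the ribulose phosphate epimerase, rose by 0.80 ± 0.13 (adjusted p 4.20e-04). Neither the transaldolase Taldo1 (-0.14 ± 0.12, adjusted p 0.344) nor the ribose phosphate isomerase Rpia (-0.49 ± 0.37, adjusted p 0.262) was called. The median log2 ratio of the 8 genes was 0.53 in Yap KO and 0.57 in WT.

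Some of these counts carry limits of the read assignment. Reads that aligned in more than 1 place are not in the gene counts, and members with pseudogenes or copies elsewhere lose reads. The share of 31-base words also present in a gene elsewhere was 54.7% for Pgk1, 37.1% for Pgam1, 33.0% for Ldhb, 27.2% for Gapdh, 22.9% for Pkm and 19.6% for Ldha, so their levels are uncertain. For Eno1b it was 89.2% and for Eno1 28.5%, and summing the pair does not bring back reads that fit both. The strand setting of the counting is not given in the sources used here, and exon bases that lie opposite another gene's exons made up 17.9% of Rpe (opposite Kansl1l), 13.6% of G6pdx (Ikbkg), 11.5% of Gpi1 (Gm26762), 5.58% of Pfkp (Pitrm1) and 2.99% of Slc2a1 (Gm12868). Another 8 members had 3.06% or less. Without strand, reads over such bases cannot be told apart between the partners. The deposited counts hold an ambiguous entry outside the gene counts, and whether such reads went there is not known.

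The make-up of the isoenzyme families was different in stimulated and unstimulated cells, as shares of the family's reads per kilobase of exon. In the hexokinase family, Hk2 held 55.4 and 46.8% in stimulated Yap KO and WT cells, against 1.54 and 0.756% in unstimulated ones. Hk1 held 44.5 and 53.1% in stimulated Yap KO and WT cells, against 91.5 and 94.0% in unstimulated ones. Hk2 stood beside Hk1 as a main hexokinase transcript in stimulated cells. In stimulated WT cells Hk1 was the larger with every length used, and Hk2 held 32.3% with the longest transcript. In stimulated Yap KO cells the order depended on the length: with the longest transcript, Hk1 held 59.6% and Hk2 40.3%. In the PDK family, Pdk3 held 69.95 and 63.9% in stimulated cells, against 18.1 and 18.2% in unstimulated cells, and Pdk1 held 29.7 and 35.8% against 76.4 and 76.1%, Yap KO before WT in each state. The leading PDK transcript was therefore Pdk3 in both stimulated libraries and Pdk1 in both unstimulated ones.

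Among the glucose carriers, Slc2a1 held 88.6 and 80.7% of the pair's reads per kilobase in stimulated Yap KO and WT cells, against 65.8 and 56.8% in unstimulated ones. In each state its share was higher in Yap KO. In stimulated cells the log2 ratio of Yap KO over WT was -0.16 for Slc2a1 and -1.05 for Slc2a3. In unstimulated cells it was 0.41 for Slc2a1 and -0.15 for Slc2a3. Slc16a3 held 17.4 and 22.3% of the reads per kilobase of the monocarboxylate carriers in stimulated Yap KO and WT cells, against 1.25 and 0.802% in unstimulated ones. The phosphofructokinase family changed less: Pfkp held 43.3 and 47.2% in stimulated and 47.0 and 40.3% in unstimulated Yap KO and WT cells, and Pfkm held 2.59 and 2.50% against 7.68 and 9.69%. Aldoa held 99.5% or more of the aldolase family in every library, so the Aldoc change stands on a very small share. Ldhb held 0.155 and 0.249% of lactate dehydrogenase in stimulated and 1.43 and 3.07% in unstimulated Yap KO and WT cells. Among the PFKFB enzymes, Pfkfb3 was the largest transcript in all 4 libraries, at 51.1 and 52.7% in stimulated and 48.8 and 45.2% in unstimulated Yap KO and WT cells. Shares of single libraries have no replicate error.

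**Figure D3:**
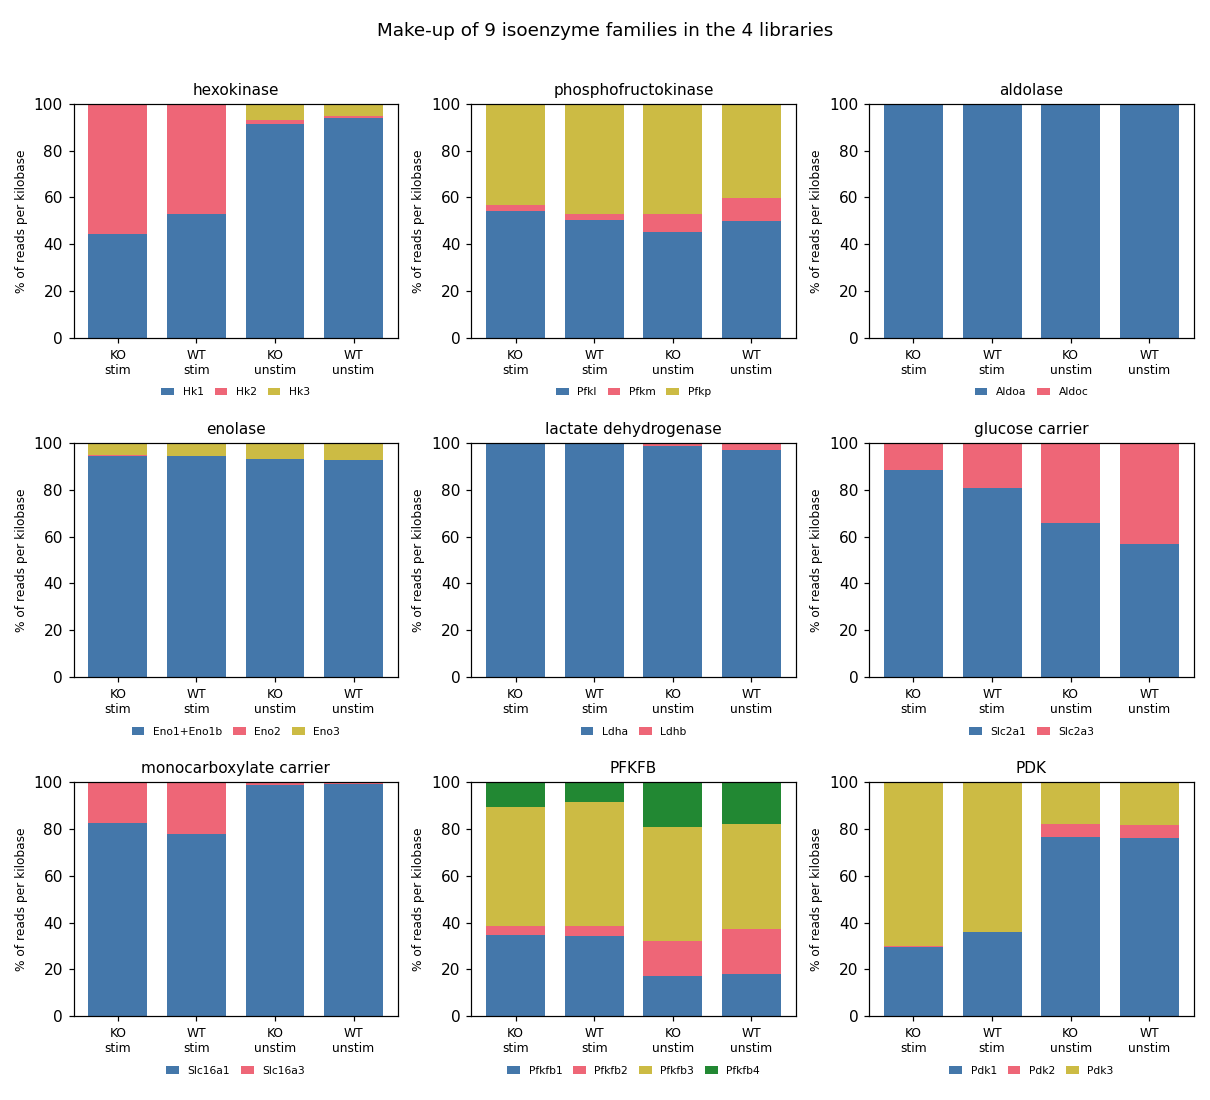
Share of each member in the reads per kilobase of exon of its isoenzyme family, in percent, as stacked bars for the 4 libraries, with no error bars. The hexokinase bars show Hk2 at 55.4 and 46.8% in stimulated Yap KO and WT cells and at 1.54 and 0.756% in unstimulated ones. The PDK bars show Pdk3 in the lead in stimulated cells and Pdk1 in the lead in unstimulated ones.

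The genotype comparison asks which differences between Yap KO and WT cells were alike in both states. It sets 2 cell sources side by side, and read as a comparison of animals its p-values would be too small. No member was called by edgeR's quasi-likelihood test, where 0.734% of all features were called higher and 0.52% lower in Yap KO. At an unadjusted p under 0.05 there were 4 of 39 members, where 10.1% of all features passed, and DESeq2 called 1, the Eno1 and Eno1b pair. The edgeR test without the filter on low counts called 3: the pair higher (adjusted p 2.27e-04), and Ldhb (0.00642) and Slc2a3 (0.00691) lower in Yap KO. No member was at least 2-fold higher in Yap KO in both states (0.955% of all features were) and none was at least 2-fold lower in both (0.877%).

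Ldhb lay just outside that rule. It had 99 reads in stimulated Yap KO cells against 204 in stimulated WT cells, and 187 in unstimulated Yap KO cells against 335 in unstimulated WT cells. The log2 ratios of Yap KO over WT were -0.95 (95% interval -1.32 to -0.61) and -1.01 (-1.29 to -0.76), and the genotype coefficient was -0.99 ± 0.23 (adjusted p 0.0791, edgeR). It was lower in Yap KO in both states by about the same ratio, but it was not called with the filter on low counts. Slc2a3 had a genotype coefficient of -0.59 ± 0.19 (adjusted p 0.263), with most of the gap in stimulated cells, where its log2 ratio was -1.05 (-1.15 to -0.94), against -0.15 (-0.24 to -0.05) in unstimulated cells. Pdk1 had a coefficient of -0.39 ± 0.15 (adjusted p 0.371), with log2 ratios of -0.64 (-0.70 to -0.57) in stimulated and -0.15 (-0.19 to -0.11) in unstimulated cells. For both genes the Yap KO library was below the WT library in each state. The summed Eno1 and Eno1b pair was higher in Yap KO in both states, with a coefficient of 0.55 ± 0.14 (adjusted p 0.13, edgeR). Reads that fit Eno1 and Eno1b equally are not in this sum, and their number may differ between the genotypes. The part of such reads in the difference was not tested.

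Many other members had the genotypes in opposite order in the 2 states. Among stimulated cells, 35 of 39 members were lower in Yap KO than in WT, where 50.1% of all features were. The interval excluded no difference for 27 of these members, against 3562 of all 15393 features. Among unstimulated cells only 11 of 39 were lower in Yap KO, where 44.8% of all features were. In that state 23 members were higher in Yap KO with an interval that excludes no difference, against 4500 of all 15393 features. The median log2 ratio of Yap KO over WT over the members was -0.29 in stimulated and 0.13 in unstimulated cells, against -0.00077 and 0.035 over all features. For 18 of 39 members, Yap KO was below WT when stimulated and above WT when unstimulated with both intervals excluding no difference, and 5.4% of all features met this. No member met the reverse. The 18 were Slc2a1, Hk1, Gpi1, Pfkl, Pfkp, Aldoa, Aldoc, Tpi1, Gapdh, Pgk1, Pgam1, Eno3, Pkm, Ldha, Pfkfb3, G6pdx, Pgd and Tkt. Counting intervals are narrow for genes with many reads, so the same was counted among features averaging 100 CPM or more: 15 of 19 such members met it, and 12.1% of 2583 such features did.

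**Figure D4:**
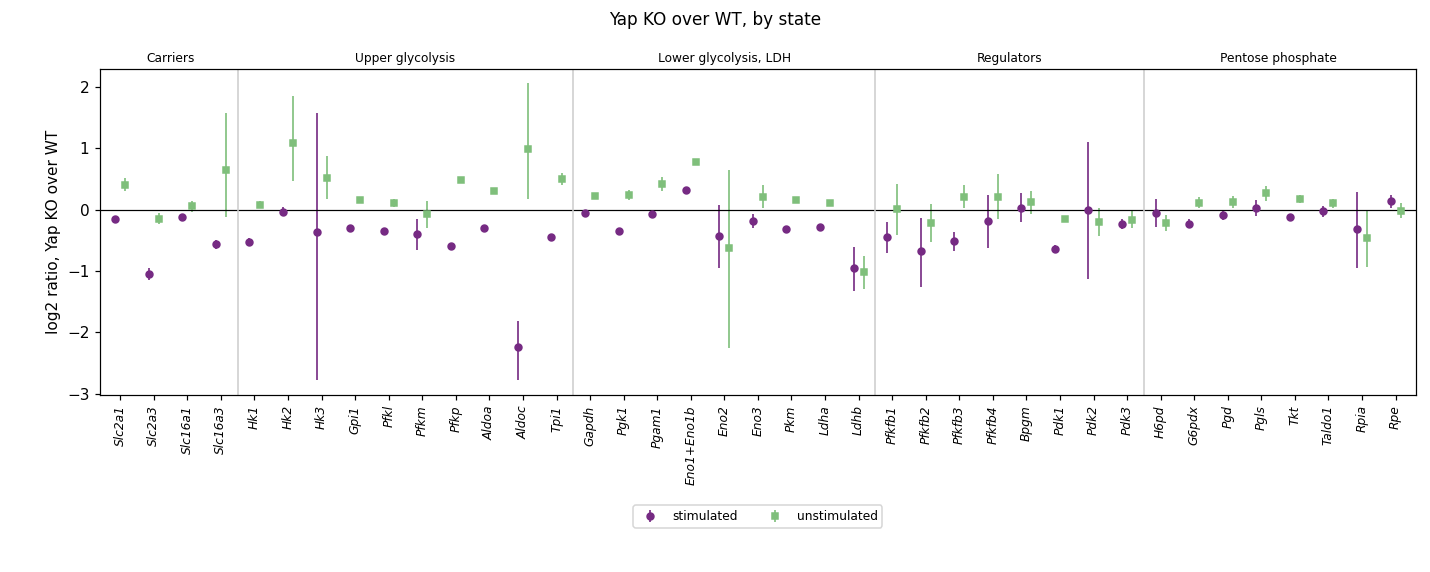
Log2 ratio of Yap KO over WT for each member, in stimulated and in unstimulated cells, with exact 95% intervals that cover counting error only. Points of stimulated cells lie under 0 for 35 of 39 members, points of unstimulated cells lie under 0 for 11, and Ldhb lies near -1 in both states.

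The same values can be read as the difference of the stimulation responses, the log2 ratio of stimulated over unstimulated cells in Yap KO minus that in WT. It was below 0 for 33 of 39 members, where 54.8% of all features were, and its interval lay below 0 for 26, where 24.2% did. No member had an interval above 0, where 17.7% of all features had one. The median difference was -0.44 over the members (range -3.22 to 0.20) and -0.05 over all features. Among features averaging 100 CPM or more, all 19 members had an interval below 0, where 39.1% of such features did, with a median of -0.47 for the members and -0.03 for those features. This difference is the interaction of genotype and state, which has no replicate here, so it was not tested.

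By role, the interval lay below 0 for 4 of 4 carriers, 8 of 10 upper glycolysis members, 7 of 9 members of lower glycolysis and lactate dehydrogenase, 2 of 8 regulators and 5 of 8 pentose phosphate members. The response was at least 2-fold apart for 4 members, all smaller in Yap KO, where 7.73% of all features were 2-fold apart. They were Aldoc at -3.22 (-4.16 to -2.28), Slc16a3 at -1.22 (-1.98 to -0.46), Hk2 at -1.11 (-1.75 to -0.47) and Pfkp at -1.06 (-1.12 to -1.01). Their data differ in kind. For Hk2 the stimulated libraries had nearly the same level (log2 ratio of Yap KO over WT -0.03, -0.10 to 0.04) and the gap was in the few reads of the unstimulated libraries (1.08, 0.47 to 1.86). For Pfkp both states contributed, with -0.58 (-0.61 to -0.56) in stimulated and 0.48 (0.43 to 0.53) in unstimulated cells. For Aldoc the ratio was -2.24 (-2.77 to -1.81) in stimulated and 0.99 (0.18 to 2.06) in unstimulated cells. Tpi1, the next upper glycolysis member, rose 15.7-fold in Yap KO and 30.2-fold in WT, a difference of -0.94 (-1.04 to -0.85). Ldha, at -0.38 (-0.41 to -0.36), and Gapdh, at -0.29 (-0.32 to -0.26), had smaller differences. Not every highly expressed member did, since Aldoa had -0.61 (-0.65 to -0.56). In 2 members the counting intervals put the responses of the genotypes in opposite directions: Hk1 had a log2 ratio of -0.28 (-0.35 to -0.22) in Yap KO and 0.32 (0.27 to 0.38) in WT, and Slc2a3 -0.39 (-0.50 to -0.29) in Yap KO and 0.51 (0.42 to 0.59) in WT.

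Reads of the pair Eno1 and Eno1b were split differently in the 2 genotypes. Enolase turns 2-phosphoglycerate into phosphoenolpyruvate. Eno1 had 67352 and 45643 reads in stimulated Yap KO and WT cells, against 23599 and 9798 in unstimulated Yap KO and WT cells. Eno1b had 187 and 11514 reads in stimulated Yap KO and WT cells, against 46 and 2394 in unstimulated ones. Eno1b thus took 0.277% of the pair's reads in stimulated Yap KO cells (0.239 to 0.319%) and 20.1% in stimulated WT cells (19.8 to 20.5%), against 0.195% (0.142 to 0.259%) and 19.6% (18.9 to 20.4%) in unstimulated Yap KO and WT cells. The split followed the genotype label and not the state. Of the 31-base words of Eno1b, 89.2% are shared with another gene, and 28.5% of those of Eno1. Taken apart, Eno1b had a genotype coefficient of -5.87 ± 0.16 (adjusted p 2.46e-07, edgeR) and Eno1 one of 0.86 ± 0.14 (adjusted p 0.0214), while the sum was not called. The cause of the split was not tested. Pseudogenes that share sequence with the pair had few reads: Gm4735 had 340 and 122 in stimulated and 138 and 21 in unstimulated Yap KO and WT cells, and Gm5855 had 58 and 144 against 17 and 38.

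**Figure D5:**
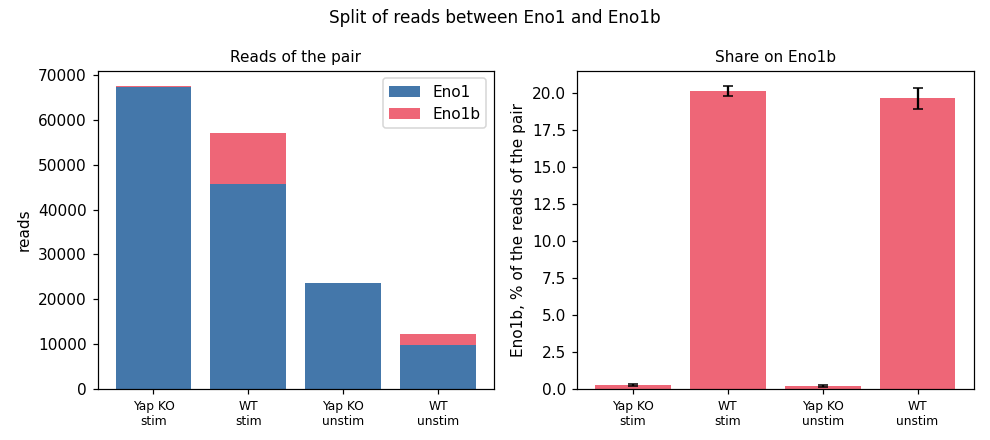
Left, reads of Eno1 and Eno1b stacked in each library. Right, share of the pair's reads on Eno1b in percent, with exact 95% intervals that cover counting error only, at 0.277 and 20.1% in stimulated Yap KO and WT cells and 0.195 and 19.6% in unstimulated ones.

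Beyond the 40 members, 72 other genes of these and adjoining pathways were listed, covering further hexokinases, carriers, the pyruvate dehydrogenase complex, gluconeogenesis, glycogen and hexosamine enzymes and known regulators. Of the 50 that passed the filter on low counts, 22 were higher in stimulated cells, 14 were lower and 14 were not called. Over all features, 32.1% were higher and 32.6% lower. None of the 50 was called between genotypes, where 0.734% of all features were called higher and 0.52% lower in Yap KO. The 5 with the largest rise were the hexose carrier Slc2a6 (4.76 ± 0.56), the mitochondrial phosphoenolpyruvate carboxykinase Pck2 (4.27 ± 0.17), Bsg, the basigin chaperone of the monocarboxylate carriers (2.51 ± 0.16), the phosphoglycolate phosphatase Pgp (2.20 ± 0.16) and Hif1a (1.94 ± 0.13). Slc2a6 stood on 124 and 83 reads in stimulated Yap KO and WT cells, against 3 and 6 in unstimulated ones. Hif1a had 9908 and 14130 reads in stimulated Yap KO and WT cells, against 3611 and 3971 in unstimulated ones. The 5 with the largest fall were the urate carrier Slc2a9 (-3.41 ± 0.41), the muscle glycogen phosphorylase Pygm (-3.38 ± 0.30), the D-lactate dehydrogenase Ldhd (-3.23 ± 0.38), Txnip, which restrains glucose uptake (-3.03 ± 0.13), and the sedoheptulose kinase Shpk (-2.27 ± 0.25). Txnip had the most reads of these, with 2143 and 2485 in stimulated Yap KO and WT cells, against 23326 and 22993 in unstimulated ones. Within each state the genotypes lay close for Txnip compared with the gap between states.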

How the data were processed

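The deposited tables, 1 for each library, hold the authors' raw counts of reads for Ensembl gene identifiers, not normalized. The submitters' processing notes name mm9 as the build. The aligner, annotation release and strand setting were not given in the sources used here. The labels name an Illumina MiSeq as the instrument, which was not checked here. Symbols, lengths and coordinates came from GENCODE M21 on GRCm38, which matched 50376 of 50686 identifiers, and promoter sequences from RefSeq (GRCm38.p6). Reads in genes numbered 19935523 to 25419974 per library, which was 35.6 to 39.7% of all entries, and the 5 summary entries (no feature, unaligned, ambiguous and the like) were left out of totals and tests.

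Genes were kept with filterByExpr by state (edgeR 4.0.16, R 4.3.3, minimum count 10) and scaled by TMM (factors 0.968 to 1.04). The quasi-likelihood F test fitted additive terms for genotype and state to all 4 libraries, with 1 residual degree of freedom that holds the interaction, prior degrees of freedom of 8.79 and Benjamini-Hochberg adjustment at 0.05 over 15393 features. SE is the absolute coefficient over the root of F. Where nothing says that libraries are separate cultures or animals, p-values measure only the spread between these libraries. The script was tested on simulated data that had no genotype effect, no interaction and less dispersion than the real counts. That run checks the code and does not bear on how well the p-values hold here.

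Log2 ratios used TMM-scaled counts and a prior count of 2, with Clopper-Pearson intervals of the conditional binomial at 95%. The difference of responses has a normal interval of the log ratio. Whether reads are independent molecules is not known. CPM of marker sums use the total reads in genes. Levels per length divide reads by the union of exons and scale each library to the same total (TPM).

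All 40 members could be named, with read counts for those that head each role by state coefficient and those past a genotype or response rule. Of the other pathway genes, the 5 largest rises and falls among those called were named. Eno1b, its pseudogenes and the markers were named because a result turns on them. The members and lists were chosen with earlier results of these data known. Alternatives were DESeq2 1.42.0, total count scaling, filters, separate or missing Eno1 and Eno1b, opposite-strand genes left out, single terms, a robust prior, another prior count and other lengths.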

Additional observations from a re-analysis of the deposited data

Results flagged for a closer look

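Flagged here were 4 members. For Hk1 and Slc2a3, counting intervals put the responses of the genotypes in opposite directions. For Pfkp and Aldoc, they put the genotypes in opposite order in the states, and the responses were also at least 2-fold apart. None of these differences was tested, since each group has 1 library. Stimulation went with lower Hk1 in Yap KO and higher Hk1 in WT, a difference of responses of -0.61 on the log2 scale. Slc2a3 showed the same, with a difference of -0.90. Yap KO was below WT in stimulated and above WT in unstimulated cells for Pfkp, with a difference of -1.06, and for Aldoc, with a difference of -3.22. Without the 2-fold condition, 18 of 39 members had the genotypes in this opposite order.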

How the results depend on the processing

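The count of 25 members higher in stimulated cells was 16 with opposite-strand genes left out, which leaves 26 member features, and the count of 5 lower was 3 there and 2 with a minimum mean of 10 CPM, which leaves 30. That minimum gave 8 in place of 14 other pathway genes lower, and medians of 1.45 in Yap KO and 1.98 in WT. Members called higher in Yap KO were 1 in place of 0 with DESeq2, with no filter and with Eno1 and Eno1b separate, and members called lower were 2 with no filter and 1 with the pair separate. With no filter the calls were the Eno1 and Eno1b pair (adjusted p 2.27e-04), Ldhb (0.00642) and Slc2a3 (0.00691), and DESeq2 gave the pair 0.0427. State coefficients of 3 uncalled members changed sign near 0, under total count scaling and the 10 CPM minimum: Hk1 to -0.065 and -0.077, Pfkm to -0.067 and -0.079, and Slc2a3 to -0.025 and -0.037. With longest transcripts, shares in stimulated Yap KO and WT cells were 40.3 and 32.3% for Hk2, 87.8 and 79.5% for Slc2a1, 20.5 and 26.0% for Slc16a3, and 65.3 and 58.9% for Pdk3. The causes were not tested, beyond the smaller number of features tested under the filters. Of the state coefficients under all alternatives, 358 kept direction and call, 6 changed sign, 1 gained the call (Ldhb) and 1 lost it (Aldoc, robust prior). Of the genotype coefficients, 33 kept direction and call and 4 gained the call. Of the single-library shares, 92 of the alternative values lay outside the counting interval of the main one. Total count scaling moved the median of all features by under 0.1 and gave 16 members in opposite order in place of 18. Pairing by replicate number could not be added, because every title carries the replicate number 1 and the groups share fewer than 2 numbers. The additive fit did compare the states within each genotype, through its genotype term. Depth limits Hk3, Aldoc, Eno2, Pdk2 and Rpia, which rest on few reads.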
